A study of Sus scrofa with 10 samples.

Results

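INTS11 encodes the RNA-cutting subunit of the Integrator complex, and on pig chromosome 6 it lies in a tight row of genes with UBE2J2, ACAP3, PUSL1, CPTP and DVL1. INTS11 was chosen by its measured difference between the 2 breeds in these same pigs, so its own values are a description and carry no test. The other 5 genes were listed by position, and the question asked of them was whether they shared the difference of INTS11. Of the 6 genes, 5 were found in the deposited table of 25880 genes, and 3 of these (INTS11, PUSL1 and DVL1) had enough reads for the comparison across all genes. CPTP could not be paired by symbol with an identifier of the table and is given here by position only.

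Longissimus lumborum, a back muscle, was sampled at slaughter from 5 Alentejano (AL) and 5 Bísaro (BI) pigs, the main local breeds of Portugal. All 10 pigs were purebred castrated males, kept free range on commercial diets and slaughtered near 150 kg, which the labels give as carcass weight and the methods of the study as body weight. Each pig gave 1 RNA-seq library, no animals were pooled, and the sources give no age per pig and no batch. Reads on genes ran from 2298045 to 3343194 per pig, with a median of 2513854 in AL and 2885579 in BI. The 10 highest genes of a pig held 48.5% (AL44) to 60.3% (BI34) of these reads. The paper reports many times more sequenced reads per sample, nearly all of them aligned, so most were not counted on genes. The cause of this loss was not tested. Values are normalised counts, that is reads on a gene scaled by a DESeq2 size factor for each pig, and 3 reads correspond to 2.47 to 3.39 normalised counts, a limit that covers counting error only. The label of the tissue was checked against 7 skeletal muscle markers, which summed to 17931 to 37071 normalised counts in AL and 32246 to 51237 in BI. Markers of adipocytes summed to 6.47 to 17.0 in AL and 13.2 to 28.4 in BI, those of fibroblasts to 14.2 to 109.7 and 19.0 to 42.3, those of endothelium to 3.24 to 16.7 and 2.20 to 9.88, those of blood and immune cells to 21.3 to 62.3 and 11.01 to 37.9, and those of nerve to 1.86 to 6.23 and 0.86 to 9.91. The adipocyte sums rested mainly on CIDEC, with means of 7.72 in AL and 14.4 in BI. PLIN1 was higher in AL, at 2.72 against 1.28, and of the other adipocyte markers FABP4 had the highest means, 1.14 and 1.81. These few reads give no direction for adipocyte content. CD3E of T cells had 0 reads in all pigs.

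Integrator is a large complex that binds RNA polymerase II and cuts RNA while it is still being made. INTS11 is its endonuclease and works as a pair with INTS9, much as CPSF3 and CPSF2 pair in the machinery that cuts messenger RNA at its 3' end. The complex is known for making the 3' ends of small nuclear RNAs and for ending transcription shortly after the start of many genes. The neighbours have unrelated roles: PUSL1 is a pseudouridine synthase that modifies RNA, CPTP carries ceramide-1-phosphate between membranes, ACAP3 switches off the small GTPase ARF6, UBE2J2 attaches ubiquitin at the endoplasmic reticulum and DVL1 relays Wnt signals from the cell surface.

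By the RefSeq annotation of Sscrofa11.1, INTS11 spans chr6:63596809-63607915 on the minus strand, in up to 17 exons. PUSL1 at chr6:63593539-63596921 lies on the plus strand, and its 3' end overlaps that of INTS11 by 113 bases. All of these bases are exonic in both genes, with 16 coding bases of PUSL1 and 0 of INTS11. ACAP3 at chr6:63579291-63593429 and UBE2J2 at chr6:63556134-63568080, both on the minus strand, follow below PUSL1. CPTP at chr6:63607991-63612325 starts on the plus strand 75 bases from the start of INTS11, and DVL1 at chr6:63617787-63628965 is read on the minus strand. The libraries were stranded, but the strand setting used in counting is not given in the sources used here. Reads in the stretch shared by INTS11 and PUSL1 therefore cannot be assigned with certainty. A setting opposite to that of the library would also give any gene, INTS11 included, reads of the other strand. This was not tested, so every count here carries that limit.

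**Figure D1:**
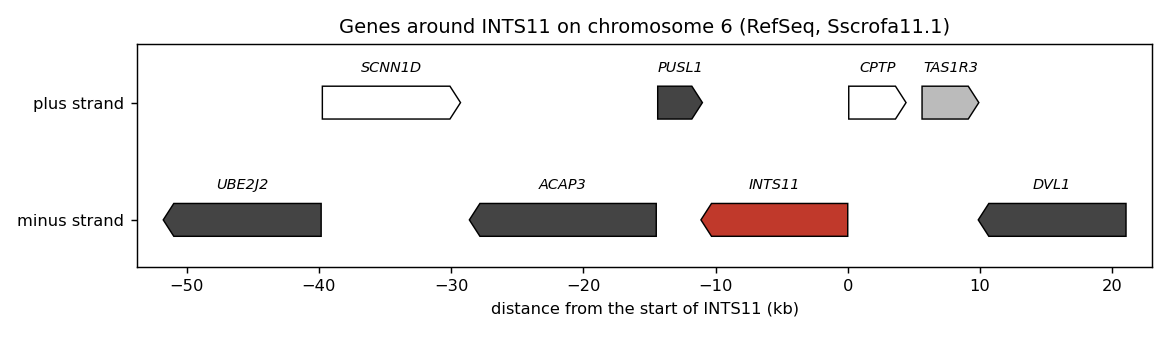
Genes around INTS11 on chromosome 6, drawn to scale by distance from the start of INTS11 in kb, with plus strand genes above and minus strand genes below and arrow tips showing the direction of transcription. INTS11 is red, its listed and measured neighbours are dark, TAS1R3 (measured, not listed) is grey, and white genes (SCNN1D and CPTP) had no paired value. INTS11 and CPTP, ACAP3 and PUSL1, and UBE2J2 and SCNN1D start back to back, while INTS11 and PUSL1 end in each other.

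Among the listed genes, 2 pairs thus start back to back, and the stretches between their starts are shown because each is the only DNA separating such a pair. UBE2J2 also starts back to back with SCNN1D, which is not a listed gene. Both are printed on the plus strand of the RefSeq Sscrofa11.1 genome, in lower case, with capitals marking matches on either strand of the GC box (GGGCGG) and of the CCAAT box (CCAAT). The first runs from the start of INTS11 to that of CPTP, chr6:63607916-63607990, and the second from ACAP3 to PUSL1, chr6:63593430-63593538.
INTS11 to CPTP: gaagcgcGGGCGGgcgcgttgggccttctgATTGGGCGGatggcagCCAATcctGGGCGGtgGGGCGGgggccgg
ACAP3 to PUSL1: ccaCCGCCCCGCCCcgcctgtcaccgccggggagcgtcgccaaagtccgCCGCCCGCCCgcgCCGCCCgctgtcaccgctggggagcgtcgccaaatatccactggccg
The 75 bases between INTS11 and CPTP held 4 GC boxes and 2 CCAAT boxes, with 1 of each overlapping, and G or C made up 76% of them. The 109 bases between ACAP3 and PUSL1 held 5 GC boxes, in part overlapping, no CCAAT box and 78.0% G or C. Of 19499 windows of 75 bases before annotated gene starts, 30.7% held a GC box and 14.1% a CCAAT box, and of windows of 109 bases 36.4% and 19.0%. CpG dinucleotides numbered 9 and 18 in the INTS11 and ACAP3 stretches, against medians of 4 and 6, and 76.5% and 92.9% of windows of the same length had fewer. The ETS core (CCGGAAG) and the TATA box (TATAAA) had 0 matches in either stretch, and were found in 4.15% and 3.33% of the 75-base windows. These letters describe the stretches and do not show that a factor binds there.

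INTS11 (ENSSSCG00000003339) was higher in BI muscle, at 133 ± 28.1 normalised counts against 41.4 ± 11.2 in AL (SD, n = 5 each), or 3.22-fold. In pigs AL44, AL46, AL49, AL52 and AL63 it stood at 58.5, 42.8, 42.1, 28.5 and 35.1 normalised counts. In BI25, BI34, BI36, BI37 and BI42 it stood at 107.9, 170.7, 153.4, 107.2 and 127.8. The groups did not overlap: the lowest BI pig lay well above AL44, the highest AL pig, and the values rested on 31 to 62 reads per AL pig and 107 to 178 per BI pig. On the log2(normalised count + 1) scale the difference AL minus BI was -1.68, with a limma standard error of 0.22, the third furthest toward BI of 3315 genes tested. Among those genes, 1 (0.0302%) passed an adjusted p of 0.05 in limma with Benjamini-Hochberg adjustment, and it was INTS11, the gene that had been selected on this contrast. Every BI pig lay above every AL pig for 21 genes (0.633%), INTS11 among them. The rank leaves out genes too low in either breed to be tested. Nothing is read from the rank of INTS11, or from its place in either count, since it was selected on this difference. The median difference of all tested genes was -0.03, with 1536 higher in AL and 1779 higher in BI.

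The 7 paired muscle markers were likewise all higher in BI, by a median log2 difference of -0.29. In limma 0 of 7 passed the adjusted threshold, beside 0.0302% of all tested genes. The smallest p among them was that of TNNT3, a fast-fibre troponin, with an unadjusted p of 0.0111 and an adjusted p of 0.409 by limma. The part of muscle content in the value of INTS11 was not tested, and in bulk muscle fewer cells of a type and less RNA per cell cannot be told apart.

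**Figure D2:**
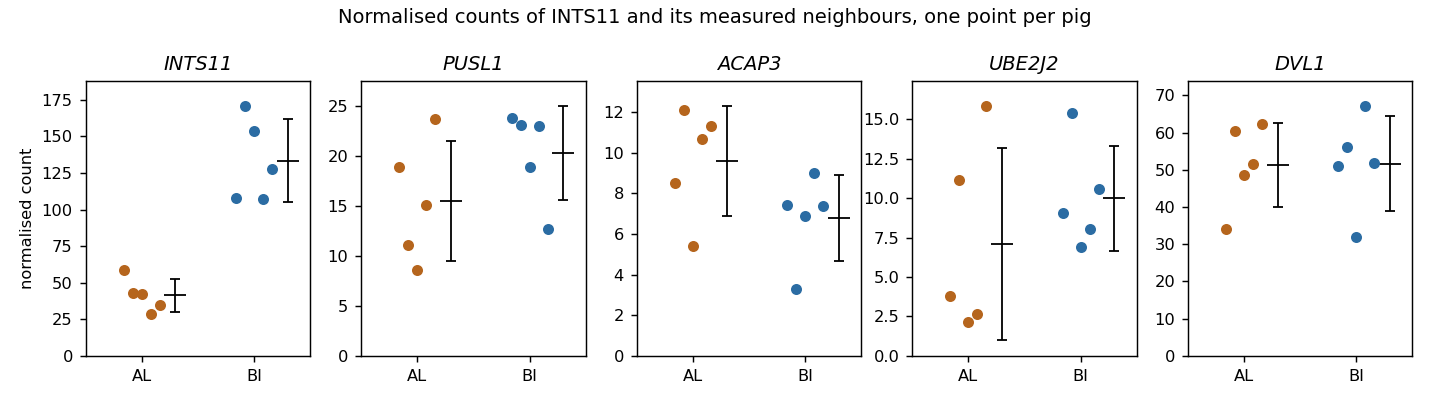
Normalised counts of INTS11, PUSL1, ACAP3, UBE2J2 and DVL1, 1 point per pig (AL orange, BI blue), with the mean and SD of the 5 pigs of each breed beside them and a separate axis from 0 in each panel. INTS11 lies between 28.5 and 58.5 in AL and between 107.2 and 170.7 in BI, while the breeds overlap in the panels of the neighbours.

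PUSL1 (ENSSSCG00000003338), which shares its 3' end with INTS11, did not pass the test between the breeds. It was counted at 18.9, 11.2, 8.63, 15.1 and 23.8 in AL44 to AL63 and at 23.9, 23.1, 19.0, 23.0 and 12.7 in BI25 to BI42, in the order of pigs used for INTS11. The breeds overlapped, with AL46 and AL49 below every BI pig, the highest AL pig, AL63, at about the level of BI25 and the lowest BI pig, BI42, among the AL pigs. The means were 15.5 ± 6.04 in AL and 20.3 ± 4.70 in BI (SD, n = 5 each). The log2 difference AL minus BI was -0.42 (95% interval -1.08 to 0.24, limma adjusted p = 0.819), and the exact two-sided permutation test over all divisions of the pigs into 5 and 5 gave p = 0.175, unadjusted.

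ACAP3 (ENSSSCG00000003329), whose start faces that of PUSL1, was low and did not pass the test, with the higher mean in AL. Its normalised counts were 8.50, 12.1, 5.39, 10.7 and 11.3 in the AL pigs and 7.41, 3.30, 6.90, 9.02 and 7.39 in the BI pigs. AL46, AL52 and AL63 lay above all BI pigs, while AL44 and AL49 lay among them. With means of 9.59 ± 2.70 and 6.81 ± 2.11 (SD, n = 5 each) the log2 difference was 0.45, and the exact permutation test gave p = 0.159, unadjusted. Single pigs moved this value: without AL49 the difference was 0.62 and the exact permutation p = 0.0238, and without BI34 it was 0.25 with an exact permutation p of 0.333. A pseudocount of 10 gave 0.22. With 3 to 13 reads per pig, ACAP3 was too low for the limma comparison.

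UBE2J2 (ENSSSCG00000003334) was likewise too low for limma and spread widely among the AL pigs. It stood at 3.78, 11.2, 2.16, 2.67 and 15.8 in AL and at 9.06, 15.4, 6.90, 8.02 and 10.6 in BI. AL44, AL49 and AL52 lay below every BI pig, on 2 to 4 reads, but AL63 was the highest pig of either breed. The means were 7.12 ± 6.08 in AL and 9.99 ± 3.32 in BI (SD, n = 5 each), a log2 difference of -0.72 with an exact permutation p of 0.206, unadjusted. Without AL49 it was -0.46 and without AL63 -1.06, with exact permutation p of 0.413 and 0.0714, and a pseudocount of 10 gave -0.28.

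DVL1 (ENSSSCG00000003342) had the same mean level in both breeds to within its error. It was counted at 33.99, 60.4, 48.5, 51.6 and 62.2 in AL and at 51.1, 56.2, 31.9, 67.1 and 51.8 in BI. The highest and the lowest pig were both BI, and the rest were mixed. At 51.4 ± 11.3 and 51.6 ± 12.8 (SD, n = 5 each) the log2 difference was 0.00, with a 95% interval of -0.51 to 0.52 (limma adjusted p = 0.9998, exact permutation p = 1.0). The interval allowed a difference of up to about 0.5 on the log2 scale in either direction.

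Per kilobase of exon, INTS11 stood level with DVL1 in AL and above every listed and measured neighbour in BI. Its level per kilobase was 17.0 ± 4.61 in AL and 54.8 ± 11.6 in BI, and that of DVL1 16.5 ± 3.63 and 16.6 ± 4.10 normalised counts (SD, n = 5 each). TAS1R3, measured but not listed, stood at 16.6 ± 3.31 in AL and 21.1 ± 3.47 in BI. Of the listed neighbours, PUSL1 came next at 7.18 ± 2.79 and 9.42 ± 2.18. UBE2J2 followed at 5.23 ± 4.46 and 7.34 ± 2.44, which overlapped with PUSL1 within their SD. ACAP3 was lowest at 1.56 ± 0.44 and 1.11 ± 0.34. Exon lengths were those of RefSeq, while reads had been counted on Ensembl gene models.

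The ratio of INTS11 to a neighbour in the same pig does not depend on the library scaling, and it is given as a description since INTS11 was selected on its difference. INTS11 had 0.55 to 1.72 reads per read of DVL1 in AL pigs and 1.597 to 4.81 in BI pigs. It had 2.67 to 7.80 reads per read of ACAP3 in AL and 11.9 to 51.7 in BI. Of the 4 listed and measured neighbours, only ACAP3 had a ratio that did not overlap between the breeds. The ratio to TAS1R3, measured but not listed, did not overlap either, at 0.38 to 1.09 in AL and 1.26 to 2.77 in BI. Against PUSL1 the ratio was 1.48 to 4.88 in AL and 4.52 to 10.1 in BI, with AL49 inside the BI range. Against UBE2J2 it was 2.21 to 19.5 in AL and 11.07 to 22.3 in BI, which overlapped.

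Among pigs of 1 breed the measured neighbours did not rank as INTS11 did, but counting error could hide shared variation. UBE2J2 had 2 to 14 reads per pig, ACAP3 3 to 13 and PUSL1 8 to 29. With each breed's mean taken off the log2 values, Pearson's r over the 10 pigs was -0.07 between INTS11 and PUSL1, -0.56 with DVL1, -0.56 with ACAP3 and 0.06 with UBE2J2. The highest r between neighbours was 0.50, for DVL1 and UBE2J2. In order of r to INTS11 over 3314 other tested genes, PUSL1 came at place 1958 and DVL1 at place 3189. The 5 genes most like INTS11 by this measure were ENSSSCG00000034144 (r = 0.89), the histone methyltransferase DOT1L (0.88), NUDT13 (0.87), ZNF771 (0.86) and THAP7 (0.86), and none of them passed the limma test between the breeds. This list rested on single pigs. Of its 5 genes, 0 remained among the first 5 without AL44, 1 without BI34, 2 without AL52, BI25 or BI42, and 3 without BI36 or BI37. All points share the size factor of their pig, and with 10 pigs and 3314 genes high values of r are common, so they are given as a description.

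Beyond the listed genes, the annotation places 50 genes within 300 kb of INTS11, of which 32 were in the table, 3 with no read. Besides INTS11, 10 of them were tested and 0 passed the adjusted threshold by limma, DESeq2 or edgeR, beside a share of 0.0302% of all tested genes by limma. An unadjusted limma p under 0.05 was found for 2 of the 10, against 7.21% of all tested genes. Of the 10, 6 had a log2 difference below 0 and 4 above, among them DVL1 at 0.00 and CCNL2 at 0.01, which have no direction, with a median log2 difference of -0.17 against -0.03 over all tested genes. Without INTS11, 4 genes were tested within 100 kb and 15 within 1000 kb, and 0 were called by limma in either window, with 0 and 3 at an unadjusted p under 0.05.

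TAS1R3, a subunit of the sweet and umami taste receptors, lies between CPTP and DVL1 and overlaps the 3' end of DVL1 by 45 bases. It stood at 53.8, 50.2, 56.1, 75.6 and 75.8 normalised counts in AL and at 70.8, 61.7, 82.8, 85.2 and 95.1 in BI. BI36, BI37 and BI42 lay above all AL pigs, and the other two BI pigs lay among them. Its means were 62.3 ± 12.4 and 79.1 ± 13.0 (SD, n = 5 each), with a log2 difference of -0.35 (95% interval -0.77 to 0.08, limma adjusted p = 0.780, exact permutation p = 0.0635).

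The 2 genes with an unadjusted limma p under 0.05 lay together near the far edge of the window and pointed opposite ways. KLHL17, a Kelch family protein, was the most abundant of those genes of the window that had a paired value. It stood at 7317, 4517, 5744, 10136 and 11876 in AL and 5632, 6708, 4566, 4338 and 4385 in BI. AL44, AL52 and AL63 lay above all BI pigs, and AL46 and AL49 among them. Its log2 difference was 0.56 (limma adjusted p = 0.604, exact permutation p = 0.0794). NOC2L, a nucleolar protein, stood at 53.8, 66.0, 91.7, 46.3 and 62.2 in AL and at 82.4, 110.1, 71.5, 71.2 and 132.0 in BI. BI34 and BI42 lay above all AL pigs and AL49 inside the BI range, and the log2 difference was -0.53 (limma adjusted p = 0.643, exact permutation p = 0.0635).

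SAMD11, GNB1, CCNL2 and MIB2 had 95% intervals that crossed 0. SAMD11, a nuclear protein, had a log2 difference of -0.35, and GNB1, a G protein subunit, -0.11. The cyclin CCNL2 had 0.01 and the ubiquitin ligase MIB2 0.15. PLEKHN1, not tested by limma for its low counts in BI, had a log2 difference of 1.36 with an exact permutation p of 0.190.

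**Figure D3:**
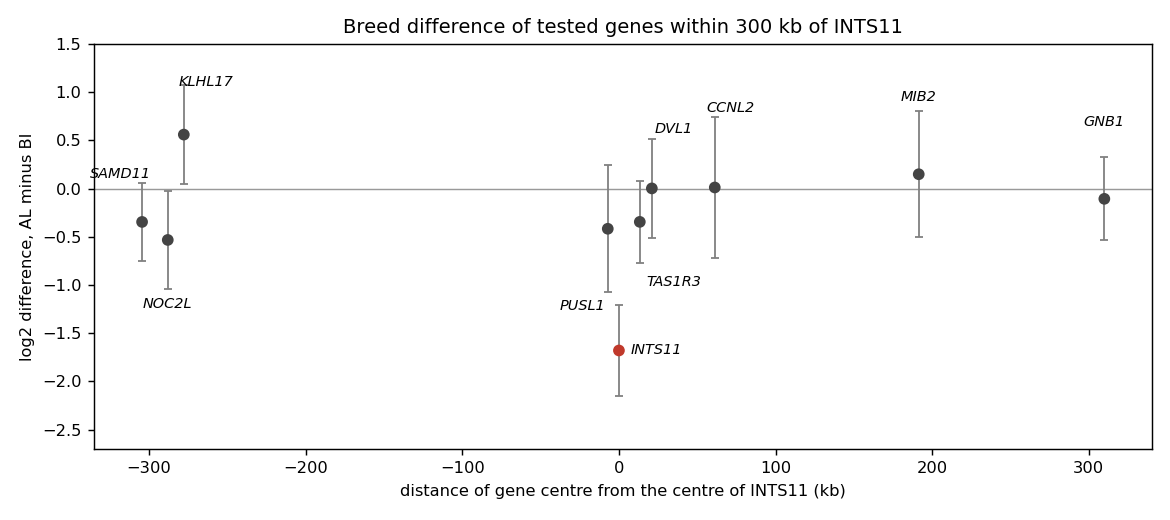
Log2 difference AL minus BI of 10 tested genes lying wholly or partly within 300 kb of INTS11, by distance of the gene's centre from that of INTS11 in kb, with 95% intervals from limma as bars. INTS11 (red) stands at -1.68, and the other genes drawn lie between -0.53 and 0.56.

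None of the other tested subunits of Integrator passed the test between the breeds. Of 16 subunits, 14 were paired with the table, INTS7 had no read, and 3 besides INTS11 were tested. Among these, 0 passed by limma, DESeq2 or edgeR and 0 had an unadjusted limma p under 0.05. Over all tested genes the limma shares were 0.0302% and 7.21%, so counts of 0 among 3 genes tell little. Of these 3, 2 were higher in AL and 1 in BI, with a median log2 difference of 0.15 against -0.03 over all tested genes. The other paired subunits had means under 5 normalised counts in each breed, so that a difference in them was not detectable at this depth.

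INTS9, the partner of INTS11 in the cutting module, did not pass the test between the breeds. It stood at 71.8, 66.0, 75.5, 82.7 and 96.1 in AL and at 74.1, 80.4, 67.2, 79.2 and 52.8 in BI. The breeds overlapped, with AL63 highest and BI42 lowest. Its log2 difference was 0.15 (95% interval -0.25 to 0.55, limma adjusted p = 0.919), from means of 78.4 ± 11.6 and 70.8 ± 11.3 (SD, n = 5 each). The interval allowed a difference of up to 0.55 on the log2 scale. INTS11 had 0.34 to 0.82 reads per read of INTS9 in AL pigs and 1.35 to 2.42 in BI pigs. In reads, not scaled by exon length, INTS9 was the higher in every AL pig and INTS11 in every BI pig. INTS11 was selected on its difference between these pigs, so this order is a description and no finding about the pair.

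INTS13, of the module with INTS10 and INTS14, was spread more widely in BI than in AL. Its normalised counts were 48.1, 51.1, 65.8, 47.1 and 50.9 in AL and 109.55, 46.3, 70.7, 60.1 and 109.9 in BI. BI25, BI36 and BI42 lay above all AL pigs, while BI34 was the lowest of all 10. The log2 difference was -0.51 (95% interval -1.05 to 0.02, limma adjusted p = 0.699, exact permutation p = 0.103). INTS1, the scaffold subunit, was at 9.44, 22.3, 15.1, 21.3 and 38.5 in AL and 10.7, 26.4, 12.1, 16.0 and 12.7 in BI. The breeds overlapped, and its log2 difference was 0.36 (95% interval -0.41 to 1.14, limma adjusted p = 0.884).

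**Figure D4:**
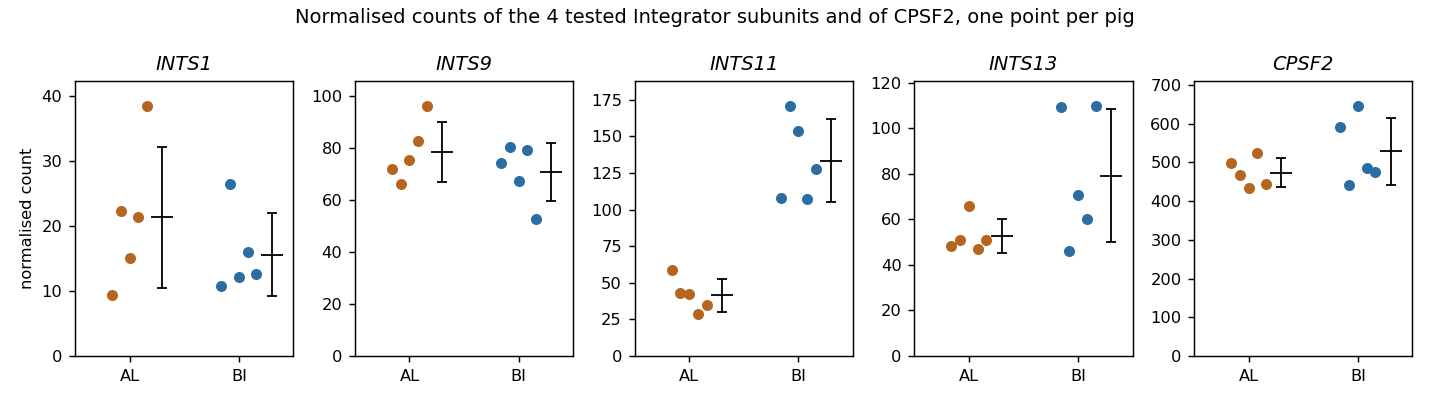
Normalised counts of the Integrator subunits INTS1, INTS9, INTS11 and INTS13 and of CPSF2, 1 point per pig (AL orange, BI blue), with the mean and SD of the 5 pigs of each breed and a separate axis from 0 in each panel. Only in the INTS11 panel are the breeds apart, with AL at most 58.5 and BI at least 107.2.

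Proteins that work with Integrator gave 2 tested genes of 12, both higher in AL, and 0 called by limma, beside 0.0302% of all tested genes. NABP2, which binds single-stranded DNA in a complex with INTS3, had an unadjusted limma p of 0.0213. It stood at 33.99, 47.4, 51.8, 41.8 and 28.3 in AL and at 30.5, 23.1, 31.0, 26.1 and 19.0 in BI. All AL pigs but AL63 lay above all BI pigs, and the log2 difference was 0.62 (95% interval 0.11 to 1.13, limma adjusted p = 0.522, exact permutation p = 0.0238, unadjusted). The other, NELFCD of the polymerase pausing factor NELF, had a log2 difference of 0.21 (limma adjusted p = 0.823).

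Of 21 factors of messenger RNA 3' end cleavage, 17 were paired and 3 tested, all higher in BI with differences from -0.25 to -0.15. Limma called 0 of them, beside 0.0302% of all tested genes. CPSF2, the relative of INTS9, stood at 474 ± 37.6 in AL and 528 ± 86.5 in BI (SD, n = 5 each; log2 difference -0.15, limma adjusted p = 0.881). CPSF3, the nearest relative of INTS11 and the nuclease of that machinery, had 3 reads over all AL pigs and 4 over all BI pigs, too few to compare.

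The families of the neighbours gave no called gene in limma, beside 0.0302% of all tested genes, so nothing is read from this count. Of 13 pseudouridine synthases 4 were tested, PUSL1 among them, all higher in BI with a median log2 difference of -0.23. Over all 3315 tested genes 1779 were higher in BI, with a median of -0.03. PUS1 had means of 2.02 in AL and 0.914 in BI. Of 10 dishevelled and Wnt genes 4 were tested, with log2 differences from 0.00 (DVL1) to 0.33 and a median of 0.17. The closest relatives of DVL1 were DVL2, at 1359 ± 319 in AL and 1095 ± 137 in BI (SD, n = 5 each; log2 difference 0.29, limma adjusted p = 0.780), and DVL3, with a log2 difference of 0.05. Of 6 ARF GAPs 2 were tested, 1 higher in each breed, and of 9 ubiquitin enzymes of the endoplasmic reticulum 4 were tested, 2 higher in each. Of 5 lipid transfer proteins 4 were paired, all too low to be tested, and CPTP, the unpaired one, had no value. ACAP2, UBE2J1 and GLTP, the relatives of ACAP3, UBE2J2 and CPTP, had means of about 1 normalised count or less.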

How the data were processed

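Muscle was taken at slaughter and frozen, and its RNA was later extracted and sequenced as stranded paired-end messenger RNA libraries. The authors trimmed reads with Trim Galore 0.5.0, aligned them with HISAT2 2.1.0 to Sscrofa11.1 (Ensembl release 94), handled alignments with SAMtools 1.9 and counted reads per gene with HTSeq-count 0.11.1. The deposited signal values are these counts after scaling by a size factor for each pig (DESeq2). The authors' own log2 fold changes, p-values and scores (standard error and Wald statistic), deposited in the same table, were not used. The low values were whole multiples of 1 read for 100% of values (tolerance 0.01), so that reads per pig were recovered. Of 25880 identifiers, 14855 were paired with a symbol through the reference gene names.

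The 3315 genes whose normalised counts summed to 50 or more within AL and within BI were compared on log2(normalised count + 1) with limma 3.58.1 in R 4.3.3 (intensity trend, no covariate, two-sided, Benjamini-Hochberg over all 3315, threshold 0.05). For single genes, all divisions of the 10 pigs into 5 and 5 gave an exact permutation p (two-sided, unadjusted), which cannot be below 0.00794. The fits across all genes were tested on simulated data. The members and lists were chosen with earlier results of these data known. Named were the members, genes within 300 kb with a mean of at least 10, tested Integrator subunits, the 5 genes most like INTS11, listed genes with an unadjusted p under 0.05 and the closest relatives of each member. A gene of that window is counted but not reported here by name. Alternatives were pseudocounts of 0.1 and 10, other filters, limma-voom, edgeR 4.0.16 and DESeq2 1.42.0 on the recovered reads, library totals leaving out the 10 most abundant genes, and each pig left out in turn. Libraries of a breed differed by more than counting error (chi-square over degrees of freedom, 9.7 to 49.0), so each pig counted as 1 sample.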

Additional observations from a re-analysis of the deposited data

Results flagged for a closer look

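Among the neighbours, Integrator subunits and other genes described, 34 sets of 5 pigs were examined for a pig far from the others of its breed, and 2 were found. Chance gives about 1 in 20. In both, the gap of 1 AL pig to the next was over 0.71 of the range of the breed. SAMD11 stood at 578 normalised counts in AL44, against 301 to 379 in the other AL pigs, a gap of 0.717 of the range. INTS13 stood at 65.8 in AL49, against 47.1 to 51.1 in the other AL pigs, a gap of 0.787 of the range.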

How the results depend on the processing

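The difference of INTS11 stayed between -1.70 and -1.49 in the other settings that give it, and between -1.81 (without AL44) and -1.56 (without AL52) with 1 pig left out. A minimum mean of 50 in each breed drops INTS11 itself, whose AL mean is lower. The number of genes called over the whole table, 1 with limma, was 29 with DESeq2, 40 with no filter and 0 with that minimum mean, and ran from 0 (without BI36) to 17 (without AL44) with 1 pig left out, at 4 without BI37; the cause was not tested. No other gene within 300 kb and no other Integrator subunit was called in any setting run, and the median of the window ran from -0.25 to 0.08, the latter with no filter. The difference of DVL1 was -0.0045 with DESeq2 and -0.0055 with edgeR and DESeq2 size factors, and from -0.16 (without BI36) to 0.14 (without AL44) with 1 pig left out, so it has no direction. PUSL1 stayed between -0.58 and -0.24, with limma adjusted p from 0.527 to 0.970 with 1 pig left out. Of the 5 genes most like INTS11, 0 remained with the breed means kept, 4 with Spearman's rho, and 0 to 4 with 1 pig left out. No paired analysis was possible because the pigs of the 2 breeds share no numbers. ACAP3 and UBE2J2 rest on few reads, and only differences well above their spread could be seen at this depth.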

Other observations

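Outside the genes named by rule, and noticed after the values were seen, SUPT5H, a subunit of the elongation factor DSIF that Integrator meets at paused polymerase, was too low for limma. It stood at 4.72, 9.30, 5.39, 5.34 and 6.79 normalised counts in the AL pigs and at 10.7, 14.3, 9.48, 10.02 and 11.6 in the BI pigs. The lowest BI pig, BI36, lay just above AL46, so the breeds did not overlap. This held for 0.633% of the tested genes toward BI, a share that leaves out SUPT5H and other genes too low to test. The values of SUPT5H rested on 32 reads over all AL pigs and 58 over all BI pigs. AXIN2 of the Wnt list, also too low to test, did not overlap either, with 0 reads over all AL pigs and 8 over all BI pigs. These were 1 read each in BI25, BI34, BI36 and BI42 and 4 in BI37, so no direction is read from AXIN2. How often genes this low do not overlap was not tested. LRP5 of the same list, too low to test as well, pointed toward AL, with a log2 difference of 1.07. Of its AL pigs, 4 lay above all BI pigs, while AL44 lay among the BI pigs.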
